A study of Mus musculus with 8 samples.

Results

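The collagen genes were followed in mouse thyroids exposed to 99mTcO4- and in control thyroids. Earlier results of these data were known when this family and the gene lists below were chosen. Within the family no measured value entered. Every non-control spot of the array was taken whose gene name reads Col, a number, the letter a and a number. This gave 77 spots, 68 probes and 43 genes, of 59305 spots, 55681 probes and 34797 gene names in all. The genes were sorted by the kind of assembly they build into 8 fibrillar, 9 basement membrane, 7 cartilage and 19 other collagens.

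All 8 mice were female Balb/c mice of 8 weeks on a normal-iodide diet. In 4 of them 99mTcO4-, which thyrocytes take up through the iodide transporter, delivered an absorbed dose of 30 Gy to the thyroid, and RNA of the whole gland was extracted 24 hours after it was injected into the peritoneum. The 4 controls received none of it. They are called untreated in one place and saline-injected in another of the study's descriptions, and the labels do not settle which. The exposed thyroids are named S590, S589, S588 and S539, and the controls are numbered 1 to 4. Each array held RNA of 1 thyroid, and the methods call the 4 arrays of a group biological replicates. All 8 arrays shared 1 slide, where the exposed samples filled places 1 to 4 and the controls places 5 to 8, so an effect of the place on the slide and an effect of exposure cannot be told apart.

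Collagens are secreted proteins whose chains carry glycine in a repeat of the form Gly-X-Y and wind around each other into a rod. Fibrillar collagens pack into the tension-bearing fibrils of connective tissue, type IV collagen forms the sheet-like network of basement membranes, and cartilage holds its own fibril set. In the thyroid, a basement membrane surrounds every follicle and capillary, and fibroblasts of the capsule and septa lay down fibrils, while tracheal cartilage and strap muscle lie next to the gland.

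The glycine repeat can be read in the array's own probes. A search of the 68 probe sequences for a reading frame without stop in which codons beginning with GG recur with a period of 3 codons, at least 4 times in a row, found 4 probes. They are shown because they place the measurement inside the sequence that makes a chain a collagen. They run 5′ to 3′ as the array file prints them, with positions of the mm9 genome build, and capitals mark only the codons of the longest unbroken run of the repeat, not every glycine codon.
Col14a1 at chr15:55347733-55347792: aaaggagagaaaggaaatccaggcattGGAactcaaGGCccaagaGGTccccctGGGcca
Col15a1 at chr4:47283786-47283845: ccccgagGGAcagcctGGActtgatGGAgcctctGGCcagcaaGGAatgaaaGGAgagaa
Col16a1 at chr4:129756457-129756516: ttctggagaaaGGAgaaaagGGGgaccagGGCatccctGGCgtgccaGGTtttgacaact
Col25a1 at chr3:130270497-130270556: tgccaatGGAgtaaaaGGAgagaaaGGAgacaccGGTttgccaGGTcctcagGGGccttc
These are the sequences of 1 probe for each gene. The log2 fold change of exposed over control arrays was −0.27 for the Col14a1 probe, −0.43 for Col15a1, −0.51 for Col16a1 and 0.53 for Col25a1, none of which passed the test described next. Whether the other probes lie in coding exons or untranslated regions is not stated here, since no annotation of mm9 was used.

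Signals are the software's background-subtracted spot intensities on the log2 scale, made comparable by quantile normalization, so a difference of 1 is a change of 2-fold. Each gene is described by its probe of highest mean signal, and other probes are named for some of the genes. Since probes bind with unequal strength, levels are compared between arrays and never between genes. Of the 43 chosen probes, 34 were well above background on all 8 arrays, 1 (Col6a4) on none, and no collagen spot was saturated. Each probe was compared between groups with limma, with Benjamini-Hochberg adjustment over all 55681 probes and a threshold of 0.05.

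At 24 hours no collagen probe differed between exposed and control thyroids by this test: 0 of 68 passed, against a background of 0.781% of all probes. The nearest were Col9a1 (adjusted p = 0.0564) and Col5a3 (adjusted p = 0.0776). At an unadjusted p under 0.05 there were 10 collagen probes, or 14.7% against 12.2% of all probes. Of these 9 were lower in exposed thyroids, where 5.87% of all probes were, and 1 was higher, against 6.29%. By the chosen probe of each gene there were 8 genes, or 18.6% against 12.9% of all genes. Col5a2, Col5a3, Col24a1, Col9a1, Col9a3, Col6a6 and Col8a2 were lower and Col12a1 was higher. The remaining probes under 0.05, of Col15a1 and Col6a2, were lower and were not the chosen ones of their genes. The exposed arrays lay wholly to one side of the control arrays in 10 probes, 14.7% against 9.11% of all probes, and in 7 genes, 16.3% against 10% of all genes. In 5 of the genes (Col5a2, Col5a3, Col24a1, Col9a1 and Col9a3) they lay below, as in 4.75% of all genes, and in Col12a1 and Col16a1 above, as in 5.29%. Other processing moved the 2 nearest genes across the threshold, so this result depends on the processing chosen. The study's own pathway analysis lists Col5a3 among its differentially expressed genes. With the authors' deposited values, limma gave Col5a3 an adjusted p of 0.011. Col9a1 and Col5a3 both passed with normexp background correction (adjusted p = 0.0395 and 0.0160), with no background correction, with the authors' deposited values, after a filter on dim probes, with a variance trend and with array weights, the last of which also called Col9a3 (adjusted p = 0.0292). In these alternatives 733 to 962 probes passed over the whole array, against 435 in the main fit. In bulk RNA, fewer cells of a type and less RNA per cell cannot be told apart.

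The log2 fold change was below 0 in 27 of the 43 genes, 62.8% against 48.9% of all genes. Its median was −0.26 over the collagen genes and 0.01 over all genes. The size of this median depended on the processing and on single arrays. It was −0.16 over the 34 genes above background on every array, −0.11 with normexp correction, −0.14 with no background correction or with the deposited values, −0.13 without control 3, −0.14 without S589 and −0.17 without S539. The fibrillar group had 7 of 8 genes below 0 (median −0.38), the other collagens 13 of 19 (median −0.28), cartilage 4 of 7 (median −0.07) and basement membrane 3 of 9 (median 0.03). With 1 array left out, the fibrillar median ranged from −0.53 without control 1 to −0.24 without control 4. These are descriptions of genes measured on the same arrays and not tests of the groups. When the 75th percentile served for scaling instead of quantiles, the median of the collagen genes stood at 0.00437 and that of all probes at 0.16. Then 21 of the 43 collagen genes lay below 0, 48.8% against 36.8% of all genes, with 7 of 8 in the fibrillar group. The 95% confidence interval of a collagen gene reached, at the median, 0.57 to either side of its log2 fold change.

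**Figure D1:**
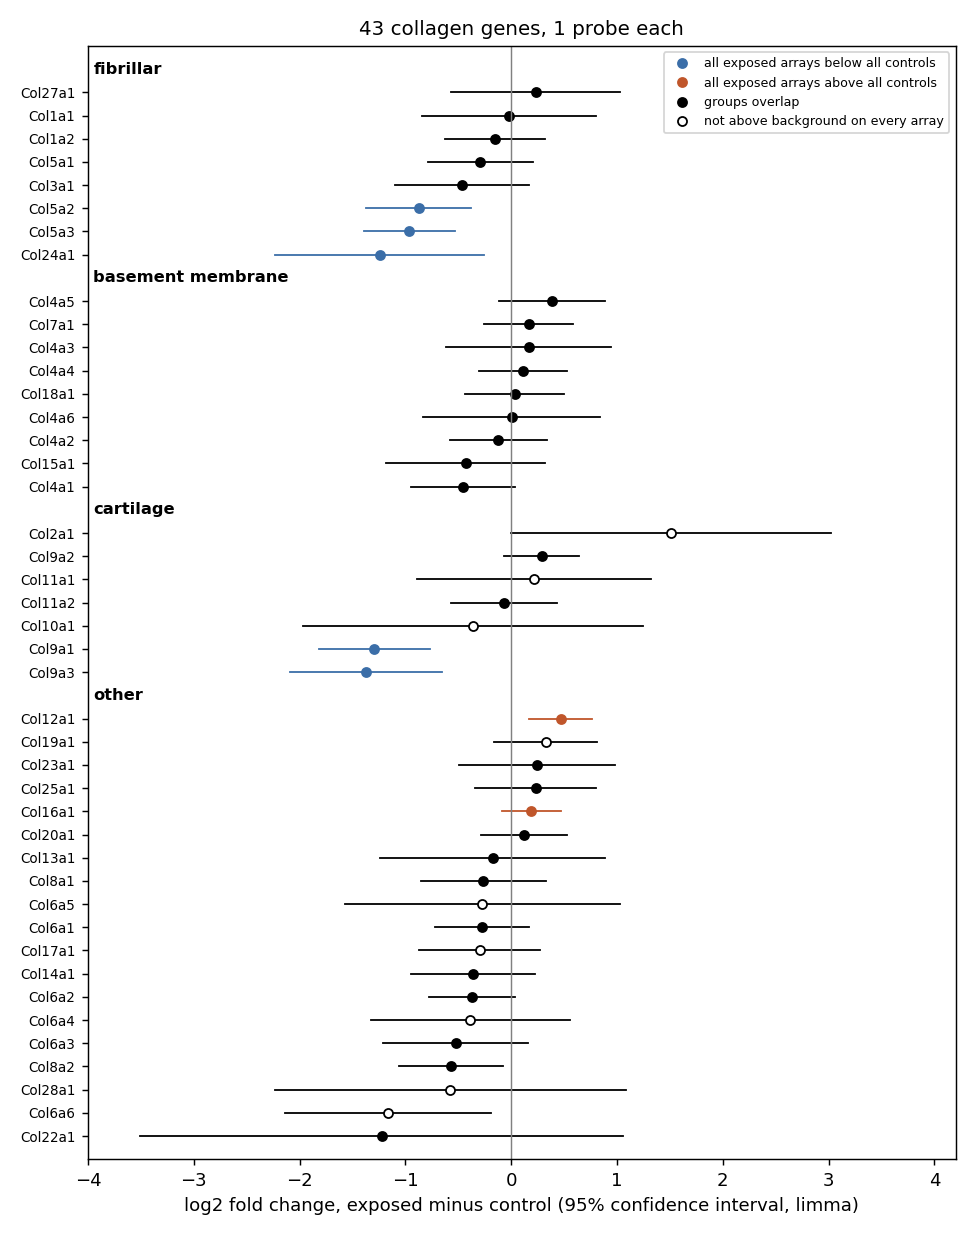
Log2 fold change of each of the 43 collagen genes (1 probe per gene, exposed minus control, x axis) with its 95% confidence interval from limma, sorted within the 4 groups of collagens. Blue marks the 5 genes whose 4 exposed arrays all lay below the 4 controls, red the 2 genes where all lay above, black genes whose groups overlap, and open circles probes not above background on every array. The fibrillar genes sit mostly left of 0, and the intervals of the blue genes stay left of 0, while no gene passed the adjusted threshold.

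Among the fibrillar collagens, the type I and type III chains, which make up the bulk of connective tissue fibrils, overlapped between the groups. Col1a1, which encodes the alpha 1 chain of type I collagen and was read on chromosome 11 from 94813115 to 94813174, had log2 signals of 12.81, 13.32, 13.61 and 13.60 on controls 1 to 4 and 13.08, 12.86, 14.31 and 12.99 on S590, S589, S588 and S539. The signal on S588 was the highest of the 8 arrays, and the other exposed arrays lay within the control range. Its log2 fold change was −0.02 (95% interval −0.84 to 0.80), and without S588 it was −0.35. Col1a2, the partner chain of type I collagen, had 14.98, 15.02, 15.17 and 15.25 on the controls and 14.84, 14.60, 15.48 and 14.91 on the exposed arrays in the same order. S588 was again the highest array, and the other 3 exposed arrays lay below all controls. The log2 fold change of Col1a2 was −0.15 (−0.62 to 0.32). Col3a1, the chain of type III collagen, had 13.54, 14.01, 14.46 and 14.53 on the controls and 13.72, 13.53, 14.12 and 13.31 on the exposed arrays, with a log2 fold change of −0.46 (−1.10 to 0.17, adjusted p = 0.527). Controls 3 and 4 exceeded every exposed array in Col3a1, while controls 1 and 2 lay among them.

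Type V collagen, a minor component that sits inside type I fibrils and limits their diameter, held 2 of the 5 genes whose exposed arrays lay below the controls. Col5a3, read on chromosome 9 from 20574592 to 20574651, had log2 signals of 11.70, 12.05, 11.98 and 12.20 on controls 1 to 4 and 11.15, 10.87, 11.33 and 10.72 on S590, S589, S588 and S539. The lowest control exceeded the highest exposed array, and the means were 11.98 ± 0.21 (SD, n = 4) and 11.02 ± 0.27 (SD, n = 4). Its log2 fold change was −0.96 (95% interval −1.39 to −0.53, adjusted p = 0.0776), a signal in exposed thyroids of 0.513 times that in controls. Col5a2, on chromosome 1 from 45431204 to 45431263, had 7.54, 7.67, 7.95 and 8.47 on the controls and 7.09, 7.12, 6.95 and 6.98 on the exposed arrays. All exposed arrays lay within a narrow band (SD 0.08) below the controls, and the log2 fold change was −0.87 (−1.37 to −0.38, adjusted p = 0.15). Col5a1, the third chain gene of this type, did not separate the groups, with 10.44, 10.63, 10.71 and 11.18 on the controls, 10.698, 10.37, 10.64 and 10.09 on the exposed arrays and a log2 fold change of −0.29 (−0.78 to 0.20).

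Col24a1, which encodes a fibrillar collagen known from developing bone and eye, was read on chromosome 3 from 145214473 to 145214532 and had 7.74, 7.52, 8.06 and 8.83 on the controls and 7.49, 6.84, 7.11 and 5.74 on the exposed arrays. The ranges nearly touched, with control 2 next to S590, and the log2 fold change of −1.24 had an interval of −2.23 to −0.26 and an adjusted p of 0.306. Col27a1 was the one fibrillar gene with a value above 0, with 6.78, 7.85, 7.80 and 8.08 on the controls and 7.84, 8.53, 7.66 and 7.40 on the exposed arrays (0.23, −0.57 to 1.03). The groups of Col27a1 overlapped almost throughout.

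**Figure D2:**
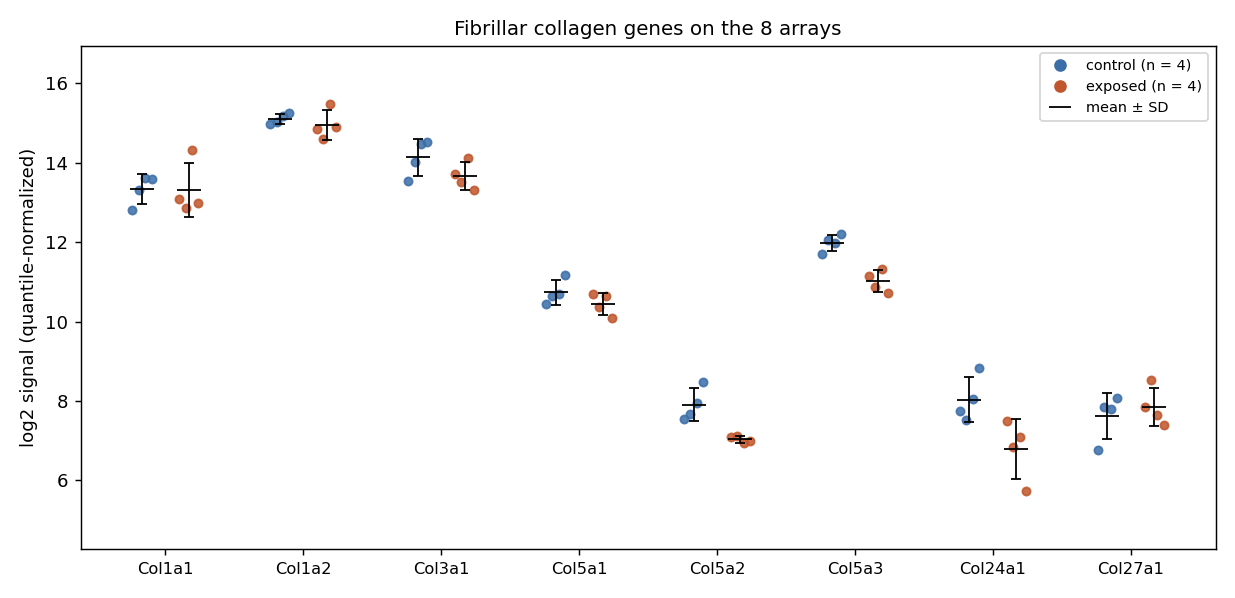
Log2 signal (y axis) of the 8 fibrillar collagen genes (x axis) on each of the 8 arrays, controls in blue and exposed thyroids in red, with the mean and SD of 4 arrays per group as bars. Col5a2, Col5a3 and Col24a1 show exposed points wholly below the control points, and the single high exposed point of Col1a1 is S588 at 14.31.

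Windows of 250 bases before the RefSeq start, in build GRCm38.p6, were found for 35 of the 43 genes, with 38 starts. They are printed for Col5a3 and Col9a1, the 2 genes nearest to the threshold, and for Col1a2, whose groups overlapped, in the direction of transcription. Capitals mark letters of a CCAAT box (CCAAT), a GC box (GGGCGG) or a TATA box (TATAAA) on either strand, none of which overlapped another. Both printed starts of Col9a1 are annotated separately, since that gene is known to be transcribed from alternative promoters.
Col5a3 at chr9:20815068-20815317, minus strand: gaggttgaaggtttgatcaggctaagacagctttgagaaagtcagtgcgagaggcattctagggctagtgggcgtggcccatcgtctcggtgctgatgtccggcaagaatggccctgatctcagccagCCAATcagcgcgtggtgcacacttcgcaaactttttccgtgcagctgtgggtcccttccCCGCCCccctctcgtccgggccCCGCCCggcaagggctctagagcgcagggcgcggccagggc
Col9a1, start 1, at chr1:24177360-24177609, plus strand: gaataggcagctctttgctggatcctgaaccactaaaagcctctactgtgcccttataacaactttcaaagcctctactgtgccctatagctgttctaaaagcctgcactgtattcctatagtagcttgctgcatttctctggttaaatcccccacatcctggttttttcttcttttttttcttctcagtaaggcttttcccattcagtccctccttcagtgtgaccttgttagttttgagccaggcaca
Col9a1, start 2, at chr1:24194953-24195202, plus strand: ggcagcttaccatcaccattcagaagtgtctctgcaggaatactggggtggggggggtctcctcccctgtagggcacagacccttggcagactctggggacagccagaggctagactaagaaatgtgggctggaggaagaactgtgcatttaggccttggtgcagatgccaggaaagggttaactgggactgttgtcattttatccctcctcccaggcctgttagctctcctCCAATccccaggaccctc
Col1a2 at chr6:4505368-4505617, plus strand: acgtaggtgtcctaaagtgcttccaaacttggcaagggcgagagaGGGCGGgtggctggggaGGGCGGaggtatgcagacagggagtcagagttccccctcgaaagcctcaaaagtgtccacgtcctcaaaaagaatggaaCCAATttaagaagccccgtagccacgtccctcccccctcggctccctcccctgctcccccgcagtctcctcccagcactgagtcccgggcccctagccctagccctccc
The Col5a3 window held 1 CCAAT and 2 GC boxes, as did that of Col1a2, while start 2 of Col9a1 held 1 CCAAT box and start 1 none of the 3 motifs. Over all 32851 RefSeq windows of this length, 33.8% held a CCAAT box, 32.7% a GC box and 12.4% a TATA box, against 13, 22 and 5 of the 38 collagen windows. A match says only that the letters occur in the window. Coordinates of this build cannot be set against the mm9 positions of the probes.

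The cartilage collagens held the other 2 genes with exposed arrays below the controls, both of them chains of type IX collagen, which coats the type II fibrils of cartilage. Col9a1, read on chromosome 1 from 24259125 to 24259184, had log2 signals of 8.38, 8.88, 9.09 and 8.79 on controls 1 to 4 and 7.68, 7.79, 7.49 and 7.00 on S590, S589, S588 and S539. Every exposed array lay below every control, and the means were 8.79 ± 0.30 (SD, n = 4) and 7.49 ± 0.35 (SD, n = 4). Its log2 fold change of −1.30 (95% interval −1.82 to −0.77) had the smallest adjusted p of all collagen probes, 0.0564. A second Col9a1 probe on chromosome 1 from 24201545 to 24201604 did not show this, with 6.54, 7.24, 7.32 and 6.97 on the controls, 7.25, 6.95, 7.07 and 6.96 on the exposed arrays and a log2 fold change of 0.04 (−0.42 to 0.50). The probes of Col9a1 thus disagreed, and their mean gave −0.63 for the gene with an adjusted p of 0.233.

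Col9a3, on chromosome 2 from 180356123 to 180356182, had 6.74, 7.69, 7.94 and 7.03 on the controls and 6.07, 5.88, 5.54 and 6.42 on the exposed arrays. The groups again did not overlap, and the log2 fold change was −1.38 (−2.09 to −0.66, adjusted p = 0.123). Col9a2, the remaining chain of type IX collagen, lay on the other side of 0, with 7.91, 8.02, 7.91 and 7.77 and 7.98, 8.01, 8.36 and 8.40 in the same order and a log2 fold change of 0.29 (−0.07 to 0.64). Control 2 lay above S590 and S589, so its groups overlapped.

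Col2a1, the chain of the main cartilage fibril, had 5.38, 4.96, 6.31 and 5.19 on the controls, where 2 of 4 arrays were above background, and 6.24, 5.97, 8.94 and 6.73 on the exposed arrays. S588 stood above the rest, and the log2 fold change of 1.51 (−0.003 to 3.03, adjusted p = 0.412) was 0.87 without it. The type X chain Col10a1 of hypertrophic cartilage was above background on 1 control and 2 exposed arrays, and the type XI chain Col11a1 on 2 and 3, so their log2 fold changes of −0.36 (−1.97 to 1.25) and 0.22 (−0.89 to 1.32) rest on signals near background. Col11a2, above background on all arrays, had −0.07 (−0.57 to 0.43).

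Genes of cartilage outside the collagens lay on both sides of 0, most of them below it. The mean log2 signal of 9 cartilage markers was 7.61 on control 1 and 6.74 to 6.81 on the other controls, against 6.69 to 6.98 on the exposed arrays. The largest excess on control 1 was that of Comp, at 12.56 against 8.55 to 10.21 on the other controls, and Matn3, at 6.63 against 3.38 to 3.92. Acan, Cytl1, Hapln1 and Matn1 exceeded the other controls there by less, and Chad, Lect1 and Ucma did not. All 5 markers that were above background on every array had a log2 fold change below 0 (100% against 49% of all genes so measured). Of the 9 markers 7 had a log2 fold change below 0 (77.8% against 48.9% of all genes). Limma's test was passed by 0, and 2 had an unadjusted p under 0.05 (22.2% against 12.9%), Chad lower and Matn1 higher. The groups did not overlap in 2 (22.2% against 10%), Matn1 and Matn3. Chad, an adhesion protein of chondrocytes, had a log2 fold change of −0.45 (adjusted p = 0.39). Lect1, a growth inhibitor of vessels in cartilage, was above background on all controls and 2 exposed arrays, and Hapln1, which ties hyaluronan to proteoglycan, on 1 control and all exposed arrays, so their log2 fold changes of −0.92 and 0.78 rest partly on signals near background. Matn1, a matrilin of the cartilage matrix, was above background on no control and on 3 exposed arrays, at least 1.21-fold higher in exposed thyroids. Its relative Matn3 was above background on 1 control and no exposed array, with all exposed values below all controls. The part of neighbouring cartilage in the type IX values was not tested.

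**Figure D3:**
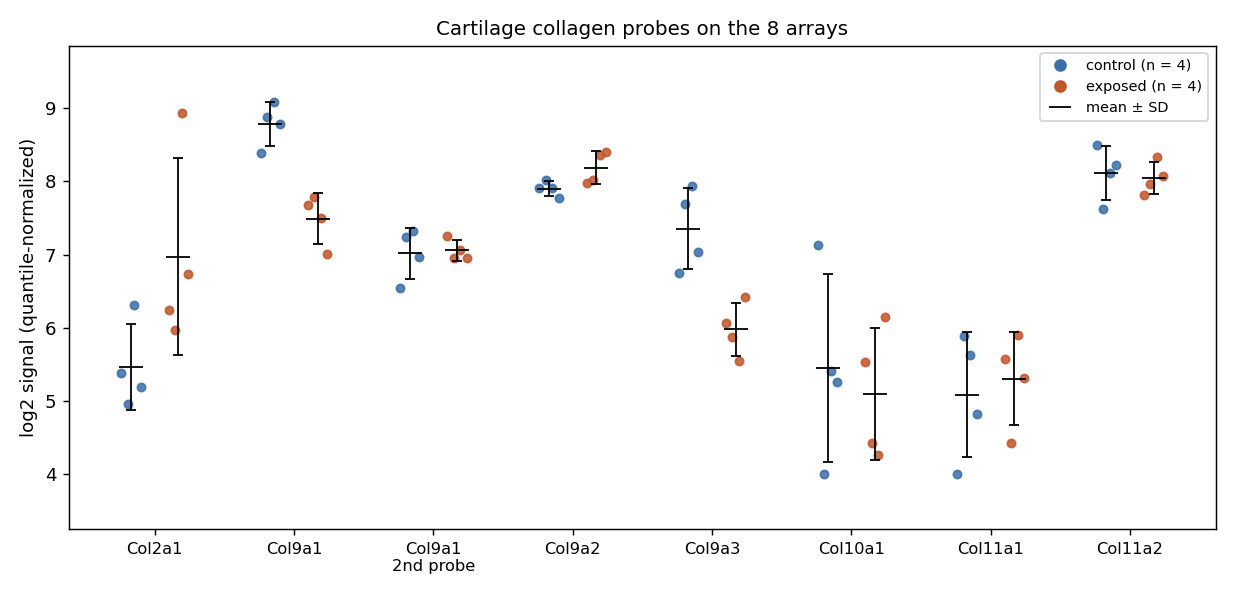
Log2 signal (y axis) of the 8 probes of the 7 cartilage collagen genes (x axis) on each of the 8 arrays, controls in blue and exposed thyroids in red, with the mean and SD of 4 arrays per group as bars. The exposed points of Col9a1 and Col9a3 lie below all control points, the second Col9a1 probe shows overlapping groups, and the Col2a1 point at 8.94 is S588.

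The basement membrane collagens had log2 fold changes from −0.46 to 0.39. In limma 0 of 9 genes had an unadjusted p under 0.05 by their chosen probe, against 12.9% of all genes. Of the 15 probes in the group 1 had such a p, the dimmest Col15a1 probe described below (6.67% against 12.2% of all probes). The groups did not overlap in 2 of these probes, 13.3% against 9.11% of all probes. Col4a1 and Col4a2 encode the chains of the ubiquitous type IV network. Their annotated starts lie 21 bases apart on opposite strands of chromosome 8 in GRCm38.p6, with the first bases of both genes overlapping. Col4a1, the one collagen gene measured by 10 spots on each array, had 12.55, 13.15, 13.53 and 12.98 on the controls and 12.51, 12.57, 12.60 and 12.71 on the exposed arrays. Only control 1 fell into the exposed range, and the log2 fold change was −0.46 (−0.95 to 0.04, adjusted p = 0.44). Col4a2 had 13.07, 13.43, 13.81 and 13.03 and 13.13, 13.17, 13.18 and 13.37 in the same order, a log2 fold change of −0.12 (−0.58 to 0.34), with the exposed arrays inside the control range.

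The value furthest above 0 in this group was that of Col4a5, an X-linked chain of specialised basement membranes, with 10.06, 10.61, 11.08 and 10.35 on the controls and 10.95, 10.91, 10.89 and 10.89 on the exposed arrays. The exposed arrays agreed within an SD of 0.03, control 3 exceeded them, and the log2 fold change was 0.39 (−0.12 to 0.89, adjusted p = 0.511). Col4a3 (0.16), Col4a4 (0.11), Col4a6 (0.00) and Col7a1, the anchoring fibril chain (0.16), overlapped between the groups.

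Col15a1 and Col18a1 encode basement membrane collagens that carry sugar chains, and a fragment of the latter is the angiogenesis inhibitor endostatin. The chosen Col15a1 probe, whose glycine repeat is printed above, had 8.08, 7.74, 7.67 and 6.65 on the controls and 6.78, 7.16, 6.94 and 7.53 on the exposed arrays, a log2 fold change of −0.43 (−1.18 to 0.32). Of 2 further Col15a1 probes, whose targets overlap each other on chromosome 4 from 47325273 to 47325332 and from 47325261 to 47325320, the first gave −0.54 and the second −1.25 (−2.01 to −0.49, adjusted p = 0.179). On the dimmer one, above background on 3 control arrays and 1 exposed array, all exposed values lay below all controls.

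Col18a1 also depended on the probe. The chosen one, on chromosome 10 from 76515790 to 76515849, had 12.50, 13.09, 13.29 and 12.63 on the controls and 12.80, 12.94, 12.82 and 13.08 on the exposed arrays (0.03, −0.44 to 0.50). A second Col18a1 probe from 76514926 to 76514985 had nearly the same control values, 12.48, 13.10, 13.34 and 12.64, and 12.46, 12.43, 12.41 and 12.47 on the exposed arrays (−0.45, −0.93 to 0.03, adjusted p = 0.432). Its exposed arrays agreed within an SD of 0.03 and lay just below the lowest control.

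Among the other collagens, Col12a1 was the gene nearest to the threshold and the only one of the 43 genes above 0 with an unadjusted p under 0.05. It encodes a collagen that decorates type I fibrils, and its probe on chromosome 9 from 79446895 to 79446954 had 10.17, 10.04, 10.05 and 10.06 on the controls and 10.74, 10.39, 10.57 and 10.50 on the exposed arrays. Every exposed array exceeded every control, and the log2 fold change was 0.47 (0.17 to 0.77, adjusted p = 0.197). A second Col12a1 probe was not well above background on any array. Col16a1, a collagen of the same fibril-associated family, had 11.49, 11.62, 11.46 and 11.59 and 11.65, 11.66, 11.79 and 11.81, a log2 fold change of 0.19 (−0.09 to 0.47) with the exposed arrays narrowly above the controls. The other Col16a1 probes gave 0.28, −0.51 for the glycine repeat probe and 0.70, all with overlapping groups. The last of them was above background on no control and 1 exposed array, so its value rests on signals near background.

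Type VI collagen forms beaded filaments around cells, and its 3 classical chains all had values below 0 without passing. Col6a1 had 14.12, 13.92, 13.83 and 13.80 on the controls and 14.05, 13.24, 13.70 and 13.57 on the exposed arrays (−0.28, −0.72 to 0.17). For Col6a2 the signals were 11.59, 11.73, 11.85 and 11.71 and 11.74, 11.33, 11.02 and 11.32 (−0.37, −0.77 to 0.04), and a second Col6a2 probe gave −0.86 (−1.44 to −0.28, adjusted p = 0.229) with all exposed arrays below the controls. For Col6a3 they were 11.99, 12.51, 12.57 and 12.78 and 12.58, 11.84, 12.03 and 11.29 (−0.53, −1.21 to 0.16). S590 lay within the control range in all 3 of these genes, and the remaining exposed arrays lay below all controls in Col6a1 and Col6a2. Neither Col6a4 probe was well above background on any array, so no fold is given in the text, and Col6a5 was above background on 1 array of each group. Col6a6, above background on all controls and 2 exposed arrays, had −1.16 (−2.14 to −0.19, adjusted p = 0.331).

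Col22a1, which encodes the collagen of the junction between muscle and tendon, varied more between arrays than any other collagen gene above background throughout. It had 12.12, 10.65, 9.71 and 12.68 on controls 1 to 4 and 12.16, 8.91, 10.90 and 8.30 on S590, S589, S588 and S539. The spread within each group exceeded the log2 fold change of −1.22 (−3.51 to 1.06, adjusted p = 0.639). A second Col22a1 probe, above background on every array, gave −0.36 (−1.82 to 1.10). The mean log2 signal of 7 skeletal muscle markers, all above background on every array, was 16.52, 15.97, 15.55 and 16.94 on the controls and 16.45, 14.68, 15.96 and 14.36 on the exposed arrays. Control 4 was the highest and S539 the lowest array for the chosen Col22a1 probe and for these markers, and S589 was the second lowest for both. The part of attached muscle in the Col22a1 values was not tested.

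The 10 remaining genes of the other group overlapped between the groups. Col23a1 (0.25, −0.49 to 0.98) and Col25a1 (0.23, −0.34 to 0.80), collagens that span the cell membrane, were the next highest among genes above background on every array, with 1 of the 2 further Col23a1 probes at 0.20 and the other at 0.06. The glycine repeat probe of Col25a1 gave 0.53. A dimmer one, above background on 1 control and 3 exposed arrays, gave 0.93, and another was above background on no array. The short-chain collagens of vessel and corneal endothelium lay below 0, Col8a2 at −0.57 (−1.06 to −0.07, adjusted p = 0.35) and Col8a1 at −0.26. A second, dimmer Col8a2 probe, above background on no control and 2 exposed arrays, gave 0.05. The fibril-associated Col14a1 had −0.36, Col19a1 0.32 and Col20a1 0.12. The membrane-spanning Col13a1 had −0.18, Col17a1 of hemidesmosomes −0.30 and Col28a1 −0.58. Col17a1, Col19a1 and Col28a1 were not above background on every array.

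Collagen output also depends on enzymes, receptors and regulators, described through 6 lists with 76 genes in all. The lists were chosen with earlier results of these data known, so their shares are descriptions and not tests. Of the 76 genes, 44 lay below 0, 57.9% against 48.9% of all genes. None of the 76 passed limma's test at the adjusted threshold, 21 had an unadjusted p under 0.05 (13 lower and 8 higher, 27.6% against 12.9% of all genes), and 11 had groups that did not overlap (14.5% against 10%).

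In the list of procollagen processing and crosslinking, 9 of 12 genes lay below 0 (75% against 48.9% of all genes), with a median log2 fold change of −0.43. At an unadjusted p under 0.05 there were 6 (50% against 12.9%), 5 of them lower and 1 higher. Loxl1, an oxidase of the lysyl oxidase family that crosslinks matrix proteins, had 11.66, 11.77, 11.67 and 12.04 on the controls and 11.11, 11.11, 11.04 and 10.52 on the exposed arrays. All exposed arrays lay below all controls (−0.84, −1.26 to −0.42, adjusted p = 0.11). The family member Loxl4 had −0.86 (adjusted p = 0.231). Pcolce, which enhances removal of the procollagen C-propeptide, had 14.91, 15.05, 14.87 and 15.03 and 14.59, 14.33, 14.42 and 14.53, again without overlap (−0.50, adjusted p = 0.159), and its relative Pcolce2 had −0.76 (adjusted p = 0.351). On the other side of 0 stood Adamts3 (0.73, above background on 1 control and all 4 exposed arrays), Adamts14 (0.34) and Bmp1 (0.23), proteinases that cut the propeptides.

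The enzymes and chaperones of chain modification and folding lay on both sides of 0, 10 of 18 below it, with a median of −0.09. The prolyl hydroxylase P4ha2 (0.51, adjusted p = 0.297), the lysyl hydroxylase Plod2 (0.60, adjusted p = 0.369) and the chaperone Serpinh1 (0.33, adjusted p = 0.502) had the highest values, and of this list only in P4ha2 did all exposed arrays exceed the controls. The lowest values were those of the galactosyltransferase Glt25d2 (−0.88, adjusted p = 0.31) and the isomerases Fkbp14 (−0.46) and Ppib (−0.32).

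In the list of collagen degradation 7 of 12 genes lay above 0 (median 0.17), and the metalloproteinase inhibitors diverged. Timp3, which is bound to the matrix, had 15.71, 15.86, 16.00 and 15.59 on the controls and 16.65, 16.70, 16.22 and 17.12 on the exposed arrays, the exposed arrays all higher (0.88, 0.40 to 1.36, adjusted p = 0.14). Timp4 had 0.83 (adjusted p = 0.239) and Timp2 −0.61 (adjusted p = 0.155), each without overlap. Mmp3, the stromelysin of fibroblasts, had 7.95, 8.53, 7.56 and 8.37 and 6.78, 7.12, 6.85 and 5.83, all exposed arrays lower (−1.46, −2.23 to −0.69, adjusted p = 0.124). Mmp9 had −0.72 and was above background on 1 array of each group.

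The collagenase Mmp8 and, chosen after its values were seen, the collagenase Mmp13 were above background on 1 array only, S588, with log2 signals of 11.14 and 7.93 there against 2.98 to 4.38 for Mmp8 and 2.95 to 4.80 for Mmp13 on the 7 other arrays. S588 was also the array with the highest Col1a1, Col1a2 and Col2a1. For Mmp8 the difference of the groups amounts to at least 1.23-fold, by the bound for probes below background on every control, and it rests on that array.

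Among the collagen receptors, 4 of 9 genes lay below 0 and the median was 0.02. Itga10, an integrin subunit of cartilage that binds collagen, had 8.45, 7.82, 8.48 and 8.40 on the controls and 9.14, 9.21, 9.60 and 9.56 on the exposed arrays. Every exposed array lay above every control, and its log2 fold change of 1.09 (0.62 to 1.56, adjusted p = 0.0722) was the closest of the 76 genes to the threshold. It passed under the same 6 alternatives as Col9a1 and Col5a3, with adjusted p from 0.0324 to 0.0425. Itga11, the integrin subunit through which fibroblasts hold type I collagen, had 11.46, 10.84, 10.60 and 12.06 and 10.86, 9.80, 10.36 and 8.62, with overlap (−1.33, adjusted p = 0.367). The other extremes were Itga2 (−0.64), Itgb1 (0.24), Ddr1 (0.17) and Ddr2 (−0.09).

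Of 12 regulators of collagen transcription around TGF-beta, 7 lay below 0 and the median was −0.07. Ctgf, a matricellular protein, had a log2 fold change of 0.44 (adjusted p = 0.679) and the signal carrier Smad2 0.21. The ligands Tgfb3 (−0.70, adjusted p = 0.395) and Tgfb2 (−0.61) and Smad3, a signal carrier like Smad2 (−0.57, adjusted p = 0.282) lay furthest below 0. Of 13 proteins that sit with collagen in the matrix, 9 lay below 0 (median −0.29). Dcn, the proteoglycan decorin that decorates fibrils, had 16.47, 16.62, 16.60 and 16.82 on the controls and 15.81, 16.01, 16.06 and 16.20 on the exposed arrays without overlap (−0.61, −0.94 to −0.28, adjusted p = 0.139). Lum (−0.46) and Tnxb (−0.40) were next, and Lamc1 (0.13) and Sparc (0.11) were the highest.

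**Figure D4:**
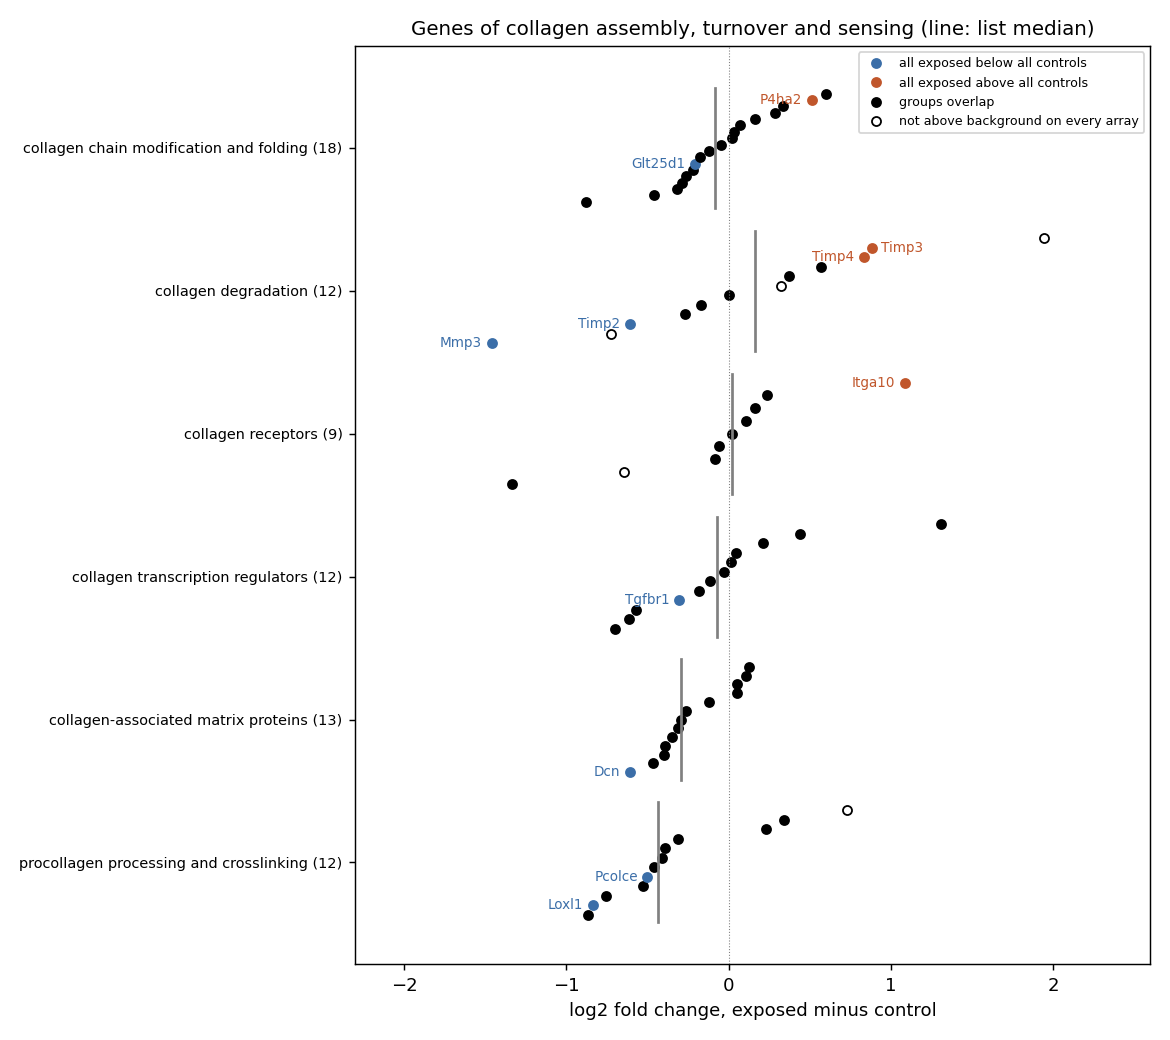
Log2 fold change (exposed minus control, x axis) of the 76 genes of 6 lists around collagen (y axis, number of genes in parentheses), 1 point per gene and a grey line at each list's median. Colours mark the 11 genes whose groups did not overlap, red with exposed arrays above and blue below, and open circles mark probes not above background on every array. The crosslinking list has its median furthest to the left (−0.43), and the TIMP genes fall on both sides of 0.

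Fibroblasts make most fibrillar collagen, and their markers lay lower in exposed thyroids, like 7 of the 8 fibrillar genes, without passing the test. The mean log2 signal of 8 fibroblast markers was 12.66, 12.74, 12.52 and 12.77 on controls 1 to 4 and 12.18, 12.14, 12.04 and 11.94 on S590, S589, S588 and S539, so the groups did not overlap. All 8 markers had a log2 fold change below 0 (median −0.54) and were above background on every array. In 6 of them the exposed arrays lay below the controls, 75% against 4.75% of all genes with exposed arrays below the controls, among them Pdgfra, a growth factor receptor, with a log2 fold change of −1.05 (adjusted p = 0.113) and Dpt with a log2 fold change of −0.83 (adjusted p = 0.317). Thy1, which T cells express too, had 15.53, 14.90, 13.42 and 13.41 on the controls and 13.39, 13.24, 13.20 and 13.34 on the exposed arrays, so controls 1 and 2 stood apart and controls 3 and 4 lay just above the exposed arrays. Controls 1 and 2 were also the arrays with the highest developing T cell markers. Limma's test was passed by 0 of the 8, and 4 had an unadjusted p under 0.05 (50% against 12.9% of all genes). Dcn and Lum stand in this list and in that of the matrix proteins. The marker list was chosen with earlier results of these data known, so its shares are descriptions and not tests. The part of fibroblast content in the collagen values was not tested.

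Other cell types varied as well. The thyrocyte markers, 8 of 8 above background on every array, had means of 12.05 to 12.97 on the controls and 12.17 to 12.24 on the exposed arrays, so the markers of the labelled tissue were present. Endothelial markers had 11.32 to 12.06 and 11.48 to 11.86. Smooth muscle and pericyte markers had 11.88 to 12.37 and 11.87 to 12.16. Macrophage markers had 10.51 to 10.94 and 10.39 to 10.71, adipocyte markers 12.58 to 13.03 and 12.34 to 13.56, Schwann cell markers 10.49 to 11.18 and 9.87 to 11.30, and parathyroid and C cell markers 11.59 to 12.33 and 12.11 to 12.52. Markers of developing T cells had 10.85 on control 1 and 9.79 on control 2, against 5.55 to 7.04 on the other 6 arrays. Without those 2 controls, an alternative chosen after seeing the data, 32 of 43 collagen genes lay below 0, 74.4% against 50.4% of all genes. With them 27 did, 62.8% against 48.9%. All 8 fibrillar genes lay below 0 without them, and the fibrillar median was −0.66 in place of −0.38, still with 0 collagen probes past the threshold. Those controls had the lowest centred fibrillar medians of the controls, −0.10 and 0.11, against 0.38 and 0.61 on controls 3 and 4. Leaving them out therefore raised the control level of this group.

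**Figure D5:**
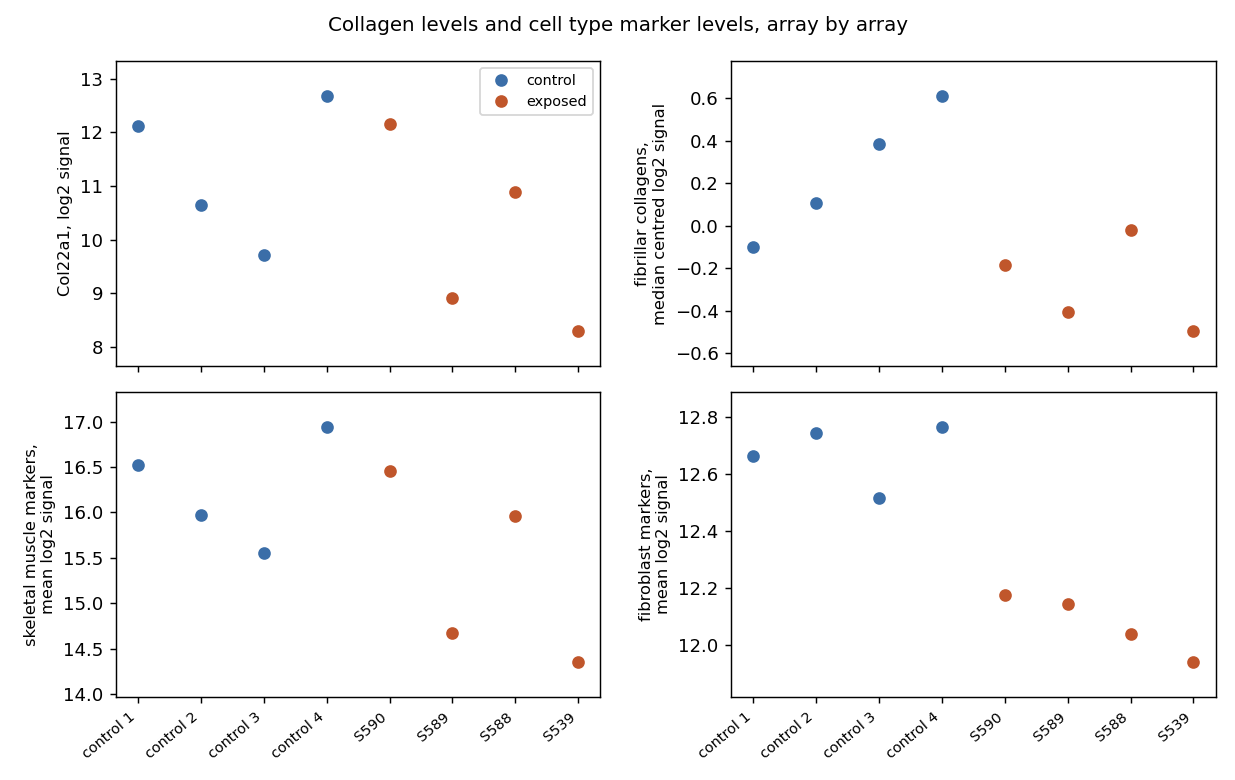
Array by array (x axis), the log2 signal of Col22a1, the median log2 signal of the 8 fibrillar collagen genes after centring each gene on its mean over the 8 arrays, and the mean log2 signals of 7 skeletal muscle and 8 fibroblast markers, with controls in blue and exposed thyroids in red. Col22a1 and the muscle markers are both highest on control 4 and lowest on S539, and the fibroblast markers of all exposed arrays (11.94 to 12.18) lie below those of all controls (12.52 to 12.77).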

How the data were processed

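One-colour Agilent 8x60K arrays were scanned and read with Feature Extraction 10.7.3.1. The deposited scanner files hold spot intensity values, of which the background-subtracted processed signal was used. The authors also deposited a table of log2 values, which equalled the quantile-normalized median signal without background subtraction within 0.0378 and served as an alternative.

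Processed signals were log2-transformed and quantile-normalized over non-control spots, and spots of a probe were averaged. Groups were compared over all 55681 probes with limma 3.58.1 in R 4.3.3, without covariates, with p-values adjusted after Benjamini-Hochberg (threshold 0.05). With 4 arrays per group, their number limits the precision. A gene was read by its probe of highest mean signal. Of the 68 collagen probes, 62 had an accession in the RefSeq table, none under another symbol.

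Named were collagens whose groups did not overlap, a fixed set of main chains, the 5 largest differences each way among genes above background on every array, and up to 3 genes each way per list. Col6a4 was named without a fold. The remaining collagens were given by value, except Col6a5. The members and lists were chosen with earlier results of these data known. Alternatives were another scaling, other background corrections, the deposited values, a dim probe filter, a variance trend, array weights, marked spots left out, the mean of a gene's probes, and each array left out. The fit was tested on simulated data. A gene of the lists is not reported here.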

Additional observations from a re-analysis of the deposited data

Results flagged for a closer look

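In 6 of 108 groups of 4 arrays that were tested, 1 array stood far from the other 3 by Dixon's test, where chance alone gives about 5.4. Col1a1 stood at 14.31 on S588, against 12.86 to 13.08 on the other exposed arrays. Col12a1 stood at 10.17 on control 1, against 10.04 to 10.06 on the other controls, and still below every exposed array. Col19a1 stood at 5.02 on control 4, against 5.58 to 5.68 on the other controls, and was above background on 1 control only. The mean of the cartilage markers was 7.61 on control 1, against 6.74 to 6.81. That of the macrophage markers was 10.51 on control 3, against 10.92 to 10.94. That of the smooth muscle and pericyte markers was 11.87 on S590, against 12.12 to 12.16 on the other exposed arrays.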

How the results depend on the processing

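The precision rests on 4 arrays per group on 1 slide, and signals near background carry little of it. With normexp correction 2 collagen probes passed the test, and 856 probes did over the whole array. With no background correction these numbers were 2 and 962, and with the deposited values 2 and 955. They were 2 and 733 after the dim probe filter, which tested fewer probes. With a variance trend they were 2 and 744, and with array weights 3 and 959. When 1 array was left out, 0 to 1 collagen probes passed. Leaving out control 1 called Col9a1 (adjusted p = 0.0455). The cause was not tested. Over all probes the calls ranged from 83 to 962 across alternatives and from 100 to 485 with 1 array left out.

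Scaling to the 75th percentile put the collagen median at 0.00437, cartilage at 0.22, the other collagens at 0.00437, Col10a1 at 0.22 and Col6a4 at 0.0815. With normexp the other collagens had −0.0345, Col18a1 −0.0015, Col11a1 −0.0733 and Col6a4 0.11. With no background correction Col18a1 had −0.0015, Col11a1 −0.15 and Col6a4 0.15, and with the deposited values −0.0012, −0.15 and 0.15. Array weights gave Col18a1 −0.12, Col10a1 0.24 and Col11a1 −0.30. Controls 3 and 4 alone, an alternative chosen after seeing the data, gave Col18a1 −0.0535 and Col23a1 −0.13, and the mean over probes Col18a1 −0.21. In the receptor list 1 gene, Itga10, passed in the same 6 alternatives (normexp, no background correction, deposited values, dim probe filter, variance trend and array weights), and in the crosslinking list 2 genes, Loxl1 and Pcolce, with the variance trend. In the chain modification list 0 to 1 genes passed with 1 array left out, Glt25d2 without control 1.

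With 1 array left out, the log2 fold change ranged from −0.0939 to 0.17 for Col18a1, −0.83 to 0.20 for Col10a1, −0.14 to 0.52 for Col11a1, −0.0127 to 0.40 for Col23a1, −0.23 to 0.0394 for Col4a2 and −0.35 to 0.13 for Col1a1. Of the 27 collagen genes named by rule, 20 kept their direction in every alternative and 7 did not. The dim probe filter left Col10a1, Col11a1 and Col6a4 untested. No paired analysis was possible because the exposed labels carry no replicate numbers that match those of the controls.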

Other observations

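S588 was the highest array for Col1a1, Col1a2 and Col2a1, and also for the bone genes Ibsp and Bglap, but not for most bone genes examined. The following genes were chosen after their values were seen. Ibsp, the bone sialoprotein, had a log2 signal of 10.15 on S588 and 4.40 to 5.68 on the 7 other arrays. Bglap, which encodes osteocalcin, had 10.53 on S588, 9.54 on control 1 and 6.33 to 8.23 on the remaining arrays. Of the 8 bone genes examined, the other 6 (Sp7, Dmp1, Alpl, Runx2, Phex and Acp5) were not highest on S588. Limma's test between the groups was passed by 0 of the 8, and 1 had an unadjusted p under 0.05 (12.5% against 12.9% of all genes). The part of bone in the Col1a1, Col1a2 and Col2a1 values of S588 was not tested.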
